A study of Homo sapiens with 3 samples.

Results

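The AP-1 and immediate early factors described here are the 10 genes FOS, FOSB, FOSL1, FOSL2, JUN, JUNB, JUND, EGR1, EGR2 and IER2, measured without heat stress in HEK-293T, a transformed line derived from human embryonic kidney. Their members were found as the probe sets (groups of short probes on the array that read one transcript region) whose platform annotation carries one of these symbols. This gave 21 of the 54675 probe sets on the array, for 9 of the 10 genes, and each was listed for 1 gene alone. For EGR2 the annotation used here lists no probe set, so its transcript was not analysed here.

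The study hybridised total RNA of 3 cultures to HG-U133_Plus_2 arrays, 1 array for each culture, to learn which candidate genes of a heat shock reporter screen are expressed in the cells. Mouse Fos and Egr2 cDNAs were part of its secondary screen. All cultures were untreated, grown in DMEM with 10% FBS, scraped in lysis buffer, and carried an inserted temperature sensitive SV40 T-antigen gene according to the sample records. The low-seeded 48 h culture started from 375000 cells and was harvested at 48 h (RNA integrity number 9.6), the high-seeded 48 h culture from 750000 cells at 48 h (10.0), and the 24 h culture from 1000000 cells at 24 h (9.5). Seeding, time of harvest and a possible batch cannot be told apart, and no stressed or stimulated cells are among the arrays. In bulk RNA, fewer cells that express a gene and less RNA per cell cannot be told apart either. Values are MAS5 signals, an intensity on a linear scale, and they cannot be set side by side between probe sets. Median signals over all probe sets were 71.0 to 80.3. Markers listed for the line and its tissue were above background for 6 of 8 genes, namely NEFL, NEFM, KRT18, KRT8, CDH2 and EYA1, and not for PAX2 and LHX1. The brightest probe set of PAX2 fell short only in the low-seeded culture (85.5, against 145.9 in the high-seeded one and 128.9 at 24 h). EYA1, PAX2 and LHX1 are factors of the kidney anlage. No mature nephron (0 of 6 genes measured), endothelial (0 of 4) or leukocyte (0 of 5) marker was above background, and 1 of 5 fibroblast markers was (COL1A1).

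Proteins of the FOS and JUN families carry a basic region and a leucine zipper, through which they pair and bind DNA as the factor AP-1. JUN proteins can pair with each other, whereas FOS proteins need a JUN partner. In resting cells many of these genes are silent or low, and growth factors, serum or stress switch them on within minutes, without new protein synthesis, through kinases that act on factors already bound to the promoter. Serum response factor (SRF) binds CArG boxes with its ETS-family cofactors, and CREB and ATF proteins bind cyclic AMP response elements. Their mRNAs are short-lived, so the levels fall soon after the stimulus. EGR1 and EGR2 are zinc finger factors of the same early wave, and IER2 encodes a nuclear protein induced with them.

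The promoters of a detected and an undetected pair of members are shown for the elements through which such signals act. They are RefSeq windows of 300 bases in GRCh38.p14, from 250 bases before the annotated start of the gene to 50 bases from the start on, each written 5′ to 3′ on the strand of its gene. The JUN window lies at chr1:58783998-58784297 on the minus strand, JUND at chr19:18281573-18281872 on the minus strand, FOS at chr14:75278578-75278877 on the plus strand and EGR1 at chr5:138465229-138465528 on the plus strand. Capitals mark every match, on either strand, to the AP-1 element TGANTCA, the cyclic AMP response element TGACGTCA, its JUN-type variant TGACATCA, the 6-base core TGACGT (which lies within TGACGTCA) and the CArG box.
JUN: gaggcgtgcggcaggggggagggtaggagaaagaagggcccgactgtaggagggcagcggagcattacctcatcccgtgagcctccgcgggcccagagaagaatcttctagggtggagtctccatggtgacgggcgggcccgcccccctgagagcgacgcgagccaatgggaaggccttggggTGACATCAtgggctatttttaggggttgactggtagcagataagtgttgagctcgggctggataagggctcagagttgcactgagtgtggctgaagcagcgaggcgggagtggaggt
JUND: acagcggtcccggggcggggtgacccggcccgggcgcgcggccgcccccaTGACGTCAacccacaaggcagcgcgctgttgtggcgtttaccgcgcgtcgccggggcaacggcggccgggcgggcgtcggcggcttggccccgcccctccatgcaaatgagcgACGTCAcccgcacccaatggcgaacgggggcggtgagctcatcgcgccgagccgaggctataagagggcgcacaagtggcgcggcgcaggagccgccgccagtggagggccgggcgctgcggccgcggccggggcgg
FOS: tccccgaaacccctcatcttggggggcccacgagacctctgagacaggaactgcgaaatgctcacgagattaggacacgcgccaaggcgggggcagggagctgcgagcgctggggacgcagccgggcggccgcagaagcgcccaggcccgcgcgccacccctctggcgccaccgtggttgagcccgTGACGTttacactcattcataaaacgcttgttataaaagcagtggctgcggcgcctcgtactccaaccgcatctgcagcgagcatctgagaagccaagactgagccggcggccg
EGR1: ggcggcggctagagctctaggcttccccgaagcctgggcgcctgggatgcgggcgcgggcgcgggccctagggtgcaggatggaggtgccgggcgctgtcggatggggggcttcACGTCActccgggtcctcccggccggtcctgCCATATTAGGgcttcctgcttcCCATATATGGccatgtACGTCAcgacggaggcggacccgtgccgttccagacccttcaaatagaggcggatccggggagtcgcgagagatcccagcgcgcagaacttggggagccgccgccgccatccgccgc

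The JUN window holds TGACATCA, starting 67 bases before the gene start, and 2.61% of the 35116 promoter windows of this length in the table hold that variant. JUND holds the full TGACGTCA 200 bases before the start, found in 1.85% of windows, and a further core on the other strand 87 bases before it. FOS holds 1 core, 64 bases before the start, and no CArG box within the window. EGR1 holds 2 cores and 2 CArG boxes, the latter starting 105 and 83 bases before the start. The table held 11 windows for 9 members, 3 of them for EGR2, which has several annotated starts. The 6-base core was found in a window of 6 members (EGR1, EGR2, FOS, FOSB, FOSL2 and JUND), the CArG box in one of EGR1 and of EGR2, and TGANTCA in that of FOSL2 alone. Of all windows 7.98% hold the core, 1.29% the CArG box and 7.71% TGANTCA, shares that count windows and not genes. For EGR2 both elements lie in the window of an internal start (chr10:62816317-62816616), and the window at the outermost start of the gene held neither. Windows of JUNB and IER2 held no match to these letters. A match is a description of the sequence only. The windows reach 250 bases before the start, so elements further upstream, of FOS or any other member, could not be found.

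Transcripts of the JUN family and of IER2 were above background in the unstressed cells, and those of the FOS family and EGR1 were not. Background was taken from 382 reference probe sets, for olfactory and taste receptors and for genes restricted to other tissues, and a probe set had to pass their 95th percentile on each of the 3 arrays. The thresholds were 117.2 in the low-seeded culture, 128.2 in the high-seeded one and 116.0 at 24 h, and 12 of the reference probe sets themselves exceeded them on all arrays. By this measure 7 of the 21 member probe sets were above background, against 36.6% of all probe sets on the array, and 4 of the 9 measured member genes, against 49.9% of all 19775 genes with a probe set. The members as a group were thus near the background share, and the families within it differed in their counts. All 3 JUN genes had a probe set above background (6 of 9 probe sets), and none of the 4 FOS genes had one (0 of 8 probe sets).

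**Figure D1:**
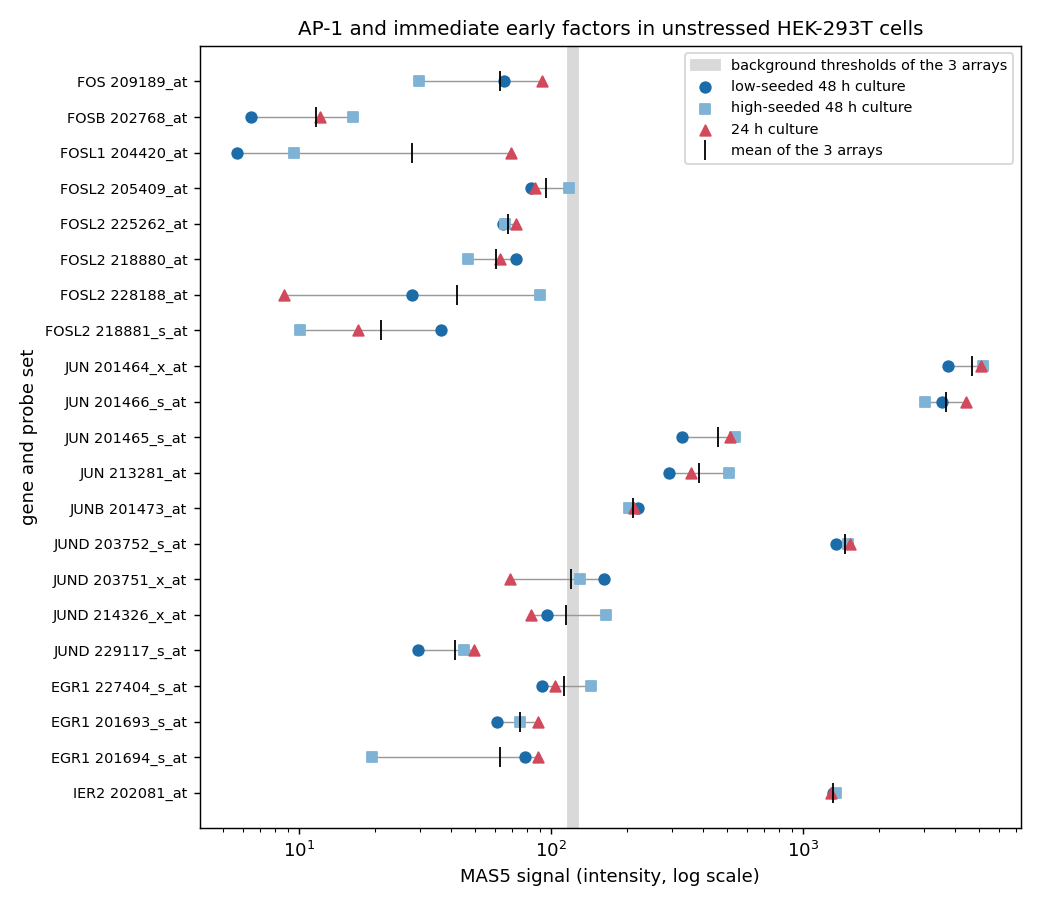
MAS5 signals (horizontal axis, intensity on a log scale) of the 21 probe sets of the AP-1 and immediate early factors (vertical axis) in 3 cultures of unstressed HEK-293T cells. Symbols are the arrays, ticks their means, and the thresholds of the arrays fall within the grey band, from 116.0 to 128.2. The probe sets of the FOS family lie left of or at the band on every array, and those of JUN, JUNB and IER2 and 1 of JUND lie right of it. Rows cannot be ranked against each other by signal.

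JUN, the founding AP-1 subunit (chr1:58780791-58784047; gene positions are those of GRCh38.p14), passed the threshold with each of its 4 probe sets. Probe set 201464_x_at gave signals of 3737 in the low-seeded culture, 5173 in the high-seeded one and 5088 at 24 h, a mean of 4666 ± 806.0 (SD, n = 3 arrays). Probe set 201466_s_at gave 3561, 3032 and 4428 in the same order, with a mean of 3674 ± 704.9. The low-seeded culture was lowest on the first and the high-seeded culture on the second, so the order of the cultures was not the same on both. Probe set 201465_s_at gave 329.2, 536.9 and 514.0, and probe set 213281_at gave 292.2, 508.5 and 359.2. On both of these the low-seeded 48 h culture was again the lowest and the high-seeded one the highest. Probe sets marked _x_at or _s_at can share sequence with other transcripts, and 213281_at is the only one of JUN without such a mark.

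JUND (chr19:18279694-18281622), the JUN protein found in most resting cells, was above background on 1 of 4 probe sets. Probe set 203752_s_at gave 1346 in the low-seeded culture, 1505 in the high-seeded one and 1526 at 24 h (1459 ± 98.1, SD, n = 3), at least 11.5 times the threshold of each array. The other 3 did not pass on all arrays. Probe set 203751_x_at gave 161.6 and 129.8 in the 48 h cultures, above the threshold, and 68.5 in the 24 h culture, below it. With the 24 h value set to the threshold, its 48 h signal was at least 1.25-fold higher, a difference that was not tested because the probe set failed the filter on low signals described below. Probe set 214326_x_at passed only in the high-seeded culture (164.1, against 95.9 and 82.8), and 229117_s_at on no array, with 29.5 in the low-seeded culture, 44.9 in the high-seeded one and 49.4 at 24 h. The call of JUND thus rests on a single probe set, of the kind that can share sequence.

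JUNB (chr19:12791486-12793315), which often counteracts JUN at shared targets, was above background on its single probe set by a small margin. It gave 220.7 in the low-seeded culture, 202.6 in the high-seeded one and 212.0 at 24 h, 1.58 to 1.88 times the threshold of the array. Its spread over the arrays was small (SD 9.05). IER2 (chr19:13150411-13154911) gave 1307, 1353 and 1284 in the same order, with a mean of 1315 ± 35.4 (SD, n = 3), and its log2 SD of 0.04 was the smallest of all member probe sets. The median log2 SD over all probe sets above background was 0.15, so IER2 and JUNB (0.06) varied less than most between the cultures, while 213281_at of JUN (0.40) and 201465_s_at of JUN (0.39) varied more.

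The FOS family was not above background on any array. FOS, the partner of JUN in the classical AP-1 dimer, gave 65.1 in the low-seeded culture, 29.9 in the high-seeded one and 92.1 at 24 h on its single probe set. These signals exceeded 83.0%, 55.2% and 92.4% of the reference probe sets on the respective arrays. FOSB, which is strongly induced in neurons, gave 6.43, 16.4 and 12.1 in the same order, below the median of the reference on every array. FOSL1, a late-responding member that is often raised in invasive tumour cells, gave 5.68, 9.55 and 69.1. Its 24 h signal stood apart from both 48 h signals but stayed below the threshold of 116.0, so its level there has only an upper bound. FOSL2 has 5 probe sets, which ran from 8.73 to 117.9. The highest of them, 205409_at, gave 83.1, 117.9 and 85.8, or 0.71 to 0.92 times the threshold, and no probe set of FOSL2 exceeded it on any array. Signals at this level were imprecise: member probe sets not above background had log2 SDs of 0.09 (225262_at of FOSL2) to 1.90 (FOSL1), and the median over all such probe sets was 0.88.

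EGR1, the zinc finger factor with CArG boxes in the window shown above, was not above background, and 1 of its probe sets lay near the threshold. That probe set, 227404_s_at, gave 91.8 in the low-seeded culture, 143.2 in the high-seeded one and 103.1 at 24 h. Only the high-seeded signal exceeded the threshold of its array, by 1.12 times. Probe set 201693_s_at gave 61.1, 75.3 and 88.2, and 201694_s_at gave 78.8, 19.5 and 88.9, all below it. The probe sets closest to the threshold are thus JUNB inside it and 227404_s_at of EGR1, 2 of JUND and 205409_at of FOSL2 outside it. With the 90th percentile of the reference as threshold EGR1 was also above background, through 227404_s_at, and with the 99th percentile JUNB was not. Without probe sets marked _s_at or _x_at JUND was lost. The calls of JUN and IER2 held under each of these settings.

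The cultures were then compared to ask whether the detected members differ with harvest time or seeding. The 24 h culture was set against both 48 h cultures by limma, a linear model with moderated variances, on log2(signal + 21.9), where the added value is the median of the reference and changes of low signals are understated. The fit took the 21637 probe sets with a log2 signal, averaged over the 3 arrays, beyond log2 of 120.5, the mean threshold. Of the members, the 7 probe sets above background passed this filter and the other 14 did not. None of the 7 was called at an adjusted p under 0.05, against 0.36% of all tested probe sets (59 higher and 19 lower at 24 h, or 4 and 4 after scaling the arrays to equal medians). At an unadjusted p under 0.05 there was 1 of the 7 with limma's mean-variance trend, against 9.67% of all probe sets tested, and 0 without it, against 6.39%. The fit has 1 residual degree of freedom, from the 48 h pair, whose cultures differed in seeding, so its residual also holds any effect of seeding. The errors are moderated towards those of other probe sets of similar signal and are not the spread of a single probe set. The p-values measure only the spread between these arrays. The fit also takes the spread of the lone 24 h array to be that of the 48 h pair.

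Among the JUN probe sets, 201466_s_at had the largest difference. Its 24 h signal of 4428 was above both 48 h signals of 3561 and 3032, which on the log2 scale is 0.43 more (limma, standard error 0.11, adjusted p = 0.12). For 201464_x_at the log2 difference was 0.21 (95% interval -0.08 to 0.50, limma adjusted p = 0.67), and its 24 h signal lay between the 48 h signals. The same held for 201465_s_at, with 0.27 (-0.30 to 0.85), and for 213281_at, with -0.10 (-0.73 to 0.54). The estimates of the 4 JUN probe sets therefore did not share a sign. JUND had a log2 difference of 0.10 (-0.19 to 0.39), JUNB of 0.0033 (-0.73 to 0.74) and IER2 of -0.05 (-0.34 to 0.24). The signs of JUNB and IER2 each turned under another scaling. Without the low-seeded array the differences of 201464_x_at and 201465_s_at became -0.02 and -0.06, and without the high-seeded array that of 213281_at became 0.28 and that of JUNB -0.05, so of the JUN probe sets 201466_s_at alone kept its sign (0.54 and 0.31). The median log2 difference was 0.10 over the 7 member probe sets and 0.0043 over all probe sets tested, and the median absolute difference was 0.10 and 0.16. The intervals leave room for changes of up to 0.74 for JUNB, so similar levels were not shown.

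The high-seeded and the low-seeded 48 h culture were compared next. With 1 array on each side there is no test, and a probe set was counted where it differed by more than 2-fold, as 1.24% of the 21637 probe sets did. None of the 7 member probe sets did. The high-seeded culture exceeded the low-seeded one on 213281_at by 0.76, on 201465_s_at by 0.67 and on 201464_x_at by 0.47 on the log2 scale. On 201466_s_at of JUN the difference was -0.23, the opposite sign. It was 0.16 for JUND, 0.05 for IER2 and -0.11 for JUNB. After scaling to equal medians, which moved the median of all probe sets tested from 0.0026 to -0.17, JUND gave -0.02, IER2 -0.13, JUNB -0.27 and 201464_x_at of JUN 0.29, so the signs of JUND and IER2 turned. Against that shifted median JUND, IER2 and the JUN probe set still lay above and JUNB below, as before. The other 2 positive JUN differences and the negative one kept their sign under it. The median absolute difference was 0.23 over the members and 0.15 over all probe sets passing the filter.

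**Figure D2:**
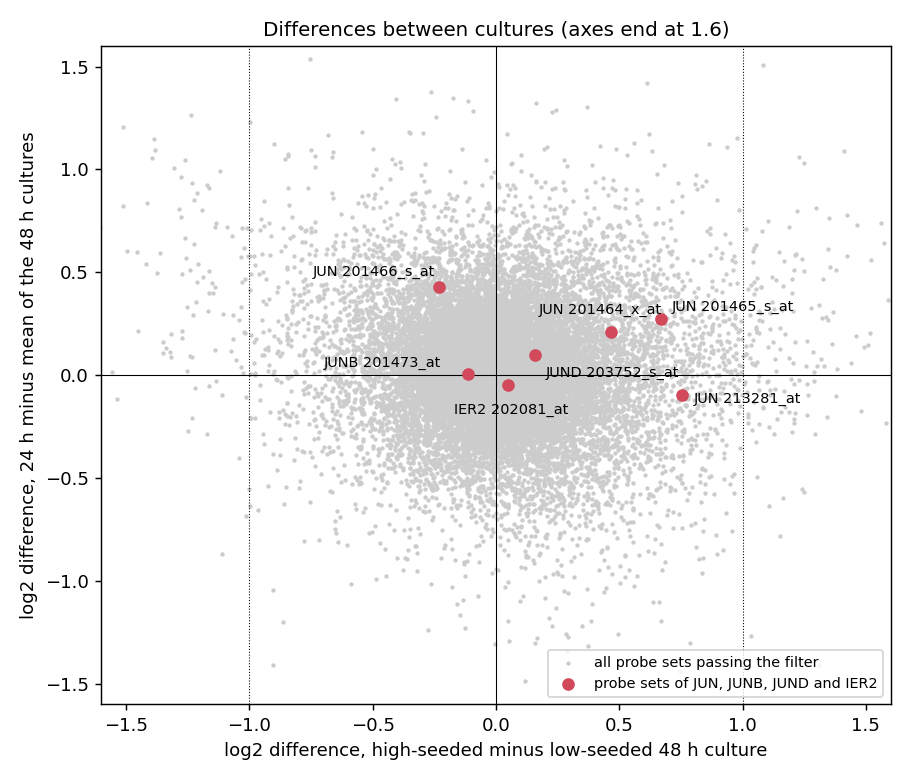
Log2 differences between cultures for the 7 tested probe sets of JUN, JUNB, JUND and IER2 (red) and for all 21637 probe sets passing the filter (grey; 31 lie outside the axes). The horizontal axis gives the high-seeded minus the low-seeded 48 h culture, with dotted lines at 2-fold, and the vertical axis the 24 h culture minus the mean of the 48 h cultures, both on the log2(signal + 21.9) scale. The probe sets of JUN spread from -0.23 to 0.76 along the horizontal axis, and those of IER2, JUNB and JUND lie near the centre.

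The wider leucine zipper families were examined as a list of 22 genes for AP-1 and CREB family partners, which also holds CREB, small MAF, NFE2 and BACH proteins whose main partners are not JUN. Of these genes 19 were measured, and 14 were above background (73.7%, against 49.9% of all genes). These included ATF2, which pairs with JUN at the JUN promoter, and ATF3, a stress-induced member. The signal of ATF3 was 965.0 in the low-seeded culture, 1152 in the high-seeded one and 1298 at 24 h. The genes BATF, BATF2, MAFF and NRL were not above background, nor was NFE2. The brightest probe set of MAFF missed the threshold only in the low-seeded culture (107.4, against 135.5 in the high-seeded one and 136.2 at 24 h). Of the 15 genes tested between 24 h and 48 h 0 were called in either direction, with a median log2 difference of 0.07. The largest differences were those of CREB1, the factor at cyclic AMP response elements (0.32, standard error 0.11, limma adjusted p = 0.31), BACH1, a repressor of heme oxygenase (0.31), and ATF3 (0.29).

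The other immediate early genes were detected in part. Of 37 measured genes 21 were above background (56.8%, against 49.9% of all genes). Not among them were EGR3, EGR4, IER5L and NR4A1. Looked at after the values were seen, the 5 remaining EGR and NR4A genes had 0 of 13 probe sets above background on every array. These are EGR3, EGR4 and NR4A1 to NR4A3, and EGR1 likewise had none. The brightest probe set of NR4A1 missed the threshold only in the high-seeded culture, and that of NR4A2 only in the low-seeded one. In the low-seeded, the high-seeded and the 24 h culture NR4A1 gave 162.8, 102.6 and 161.0, and NR4A2 100.2, 142.4 and 131.1. The brightest probe set of NR4A3 exceeded the threshold at 24 h alone (128.5). Of the relatives of IER2, also looked at afterwards, IER5 gave 4453, 4127 and 5058 in the low-seeded 48 h, the high-seeded 48 h and the 24 h culture, and IER3 541.2, 594.4 and 647.3. Both were above background on every array, with their highest signal in the 24 h culture. Of 23 genes tested 0 were called and 15 had a higher signal at 24 h. Their median log2 difference was 0.13, against 0.0043 over all probe sets tested. The largest differences belonged to CCN1, a secreted matrix protein (0.63, standard error 0.30, limma adjusted p = 0.50), HBEGF, a ligand of the EGF receptor (0.32), and ZFP36L1, which promotes decay of early mRNAs (0.32).

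Of 30 listed kinases and cofactors that act on these promoters 23 were measured, and the other 7 have no probe set in the annotation used here. Of those measured 20 were above background (87.0%, against 49.9% of all genes). SRF, which binds the CArG boxes, gave 753.0 in the low-seeded culture, 706.6 in the high-seeded one and 726.9 at 24 h, and its cofactors ELK1, ELK3, ELK4, MRTFA and MRTFB were each above background on at least 1 probe set. The JUN N-terminal kinase genes MAPK8 and MAPK9 were above background, whereas MAPK10 was not. EGFR, the receptor of epidermal growth factor, was above background on 0 of its 9 probe sets, and RPS6KA4 on 0 of 2. The brightest probe sets of MAPK10, EGFR and RPS6KA4 missed the threshold in the low-seeded culture alone. In the low-seeded, the high-seeded and the 24 h culture MAPK10 gave 110.8, 133.5 and 119.2, and EGFR 108.2, 162.0 and 147.0. None of the 23 genes tested was called, with a median log2 difference of -0.0019. The largest were RPS6KA4, a kinase that phosphorylates histone H3 at early genes, with signals from 89.5 in the low-seeded 48 h to 231.8 in the 24 h culture (0.95, standard error 0.43, limma adjusted p = 0.48), MRTFA (0.50) and MAP2K2 (0.37).

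Of the genes that restrain, modify or degrade the factors, 11 of 12 measured were above background (91.7%, against 49.9% of all genes). They included the ubiquitin ligase genes COP1, FBXW7 and ITCH, which direct the breakdown of JUN, and NAB1, a corepressor of EGR proteins. NAB2, the other corepressor and itself a target of EGR1, was not above background on all arrays. Its brightest probe set gave 134.5 in the low-seeded culture, 102.1 in the high-seeded one and 180.6 at 24 h, and missed the threshold only in the high-seeded culture. None of the 12 tested was called. The largest log2 differences were those of NAB2 (0.54, standard error 0.43, limma adjusted p = 0.75), COP1 (-0.32) and HDAC3 (-0.27), and the median was -0.07.

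Known targets of AP-1 and EGR1 were above background for 9 of 23 measured genes (39.1%, against 49.9% of all genes). The collagenase and stromelysin genes MMP1, MMP3 and MMP10 and the urokinase gene PLAU were not above background, nor were CCND1, CD44, IL6 and CXCL8. MMP9 and PLAUR of the same list were. The brightest probe set of CCND1 exceeded the threshold in the high-seeded culture alone (130.8, against 105.2 in the low-seeded one and 53.0 at 24 h). In the low-seeded, the high-seeded and the 24 h culture MMP9 gave 190.3, 171.3 and 130.6, and PLAUR 354.6, 385.4 and 404.8. VIM gave 12855, 12974 and 14203 in the low-seeded 48 h, the high-seeded 48 h and the 24 h culture, and HMOX1 1116, 906.4 and 1229. Of 10 genes tested 0 were called. FN1, the gene of fibronectin, had the largest difference, with 484.8 at 24 h against 710.4 and 786.4 at 48 h (log2 difference -0.60, standard error 0.20, limma adjusted p = 0.26), followed by NAB2 (0.54) and TIMP1, an inhibitor of metalloproteinases (0.42, adjusted p = 0.11). The median was 0.13.

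**Figure D3:**
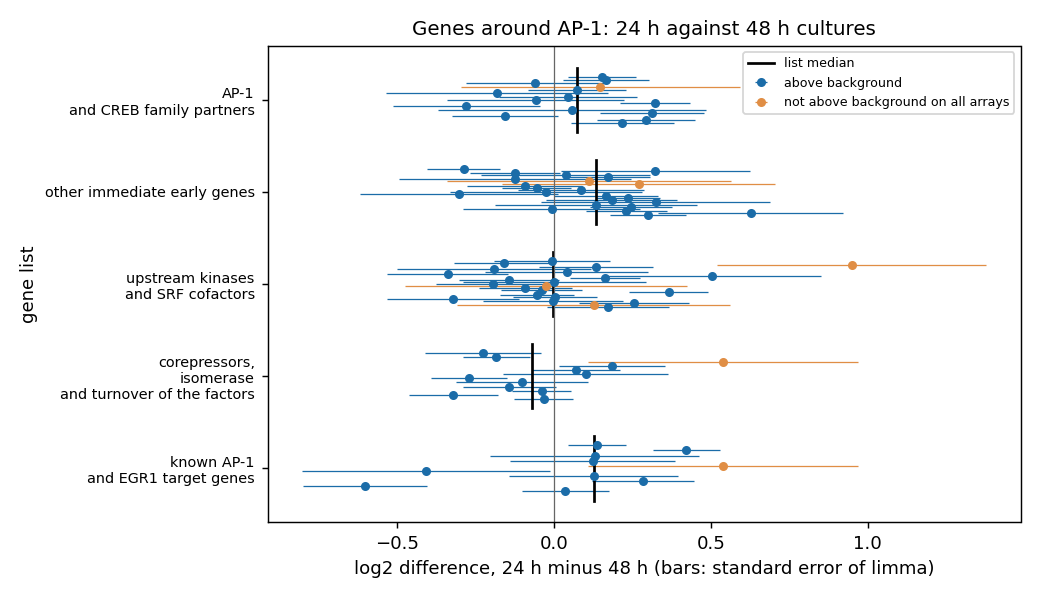
Log2 differences between the 24 h and the 48 h cultures (horizontal axis) for the tested genes of 5 lists around AP-1 (vertical axis), each gene by its brightest tested probe set. Points are genes, bars the standard errors of limma, black lines the list medians from -0.07 to 0.13, and orange marks genes without a probe set above background on all arrays. No gene of these lists was called.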

How the data were processed

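Arrays of 3 HEK-293T cultures without stress were used (48 h, n = 2; 24 h, n = 1). The authors labelled cRNA with biotin and deposited MAS5 signals, an intensity on a linear scale (with GCOS 1.0, as their processing notes name it). The mean after trimming 2% from each end was 500.1 on every array, so differences in total RNA per cell are not retained.

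Probe sets were named from the platform annotation where it lists 1 gene (41097 of 54675; 1801 have several, 11777 none listed), with symbols updated by gene ID to GRCh38.p14. All 62 control probe sets stayed in the counts. Groups follow the labelled harvest time. limma 3.58.1 in R 4.3.3 was used with Benjamini-Hochberg adjustment and tested on simulated data. Genes of a list were named where called, otherwise by the 3 largest absolute differences and the first 4 not above background; others named were chosen after their values were seen. The members and lists were chosen with earlier results of these data known. Nothing states separate passages, so the spread may be technical, and the number of arrays limits the precision. Alternatives were other thresholds, references, added values, scalings, no filter, no trend and each array left out.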

Additional observations from a re-analysis of the deposited data

How the results depend on the processing

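Signal over background limits the FOS family and EGR1, whose signals lay under the threshold except 1 of EGR1 in the high-seeded culture. The number of member genes above background was 4 and ran from 3 to 5 over the alternatives (EGR1 gained at the 90th percentile, JUNB lost at the 99th, JUND lost without probe sets marked _s_at or _x_at), and it was 4 with each array left out. No member probe set was called between 24 h and 48 h in any alternative, including the fit of all 21 without the filter. Of the 7 member probe sets passing the filter, none passed 2-fold between the 48 h cultures. Outside the filter, 228188_at of FOSL2 (1.17 on the log2 scale, high-seeded minus low-seeded) and 201694_s_at of EGR1 (-1.28) did. Their signals lay below the threshold on every array. Over all probe sets 78 were called, against 8 after scaling to equal medians and 0 without the mean-variance trend (1382 at an unadjusted p under 0.05); the cause was not tested. The log2 difference of JUNB turned to -0.0080 after quantile normalization and that of IER2 to 0.0016 after scaling to equal medians. The adjusted p of 201466_s_at of JUN ran from 0.11 to 1.00. Leaving out a 48 h array leaves no residual degree of freedom, so it gave values without a test, from -0.48 to 0.61 over the tested members (the sign turned for 201464_x_at and 201465_s_at without the low-seeded and for 213281_at and JUNB without the high-seeded array). Between the 48 h cultures, scaling to equal medians turned JUND to -0.02 and IER2 to -0.13, and JUNB moved to -0.27 (-0.20 after quantile normalization). No paired analysis was possible because the labels carry no replicate numbers and the groups share no pairs.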
